A study of Arabidopsis thaliana with 24 samples.

Results

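The UDP glycosyltransferase (UGT) genes of Arabidopsis thaliana were followed through silique and seed development. Members were chosen by gene symbol alone: a probe set counted where the probe-to-gene table gives exactly 1 gene whose symbol is UGT, 2 digits and a letter. This gave 47 of the 22810 probe sets of the array, each for a different gene. They fall into 11 number groups: 9 members are numbered 71, 4 are 72, 7 are 73, 3 are 74, 8 are 76, 3 are 78, 5 are 84, 5 are 85, and UGT80B1, UGT87A2 and UGT88A1 stand alone in theirs. The RefSeq gene table lists 58 genes with such symbols, and 47 of them have a member here. Another 3 probe sets pair a UGT with a second gene (UGT73B2 with UGT73B3, and UGT89B1 and UGT71D1 each with a gene that has only a locus name), and these were not used.

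RNA was read on Affymetrix ATH1 arrays, which group short probes into probe sets, from wild-type plants of the accession Col-0. The 24 arrays fall into 8 groups of 3. Stages 3, 4 and 5 are whole siliques (the fruits), seeds included, and stages 6, 7, 8, 9 and 10 are seeds freed from the silique. No treatment, mutant or transgene is labelled, and growth conditions are given for stage 3 alone, as long days at 23 °C on soil with 50 to 60% humidity.

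UGT enzymes move a sugar from a UDP-sugar onto a small acceptor, which usually makes the acceptor more soluble and changes its activity, transport or storage. Acceptors in Arabidopsis include plant hormones, flavonols, lignin precursors, the hydroxycinnamate sinapate that seeds store as esters, and intermediates of glucosinolates. The number in the name marks a family by sequence, so that genes of one number and letter are close relatives, while the acceptor can differ within a number. UGT80B1 belongs to the sterol glucosyltransferases, an older branch than the plant secondary product enzymes that make up the other number groups here.

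Values are MAS5 signals on a linear scale. Differences are given as changes of log2(signal + 6.97), with the standard error (SE) of the limma fit over all 24 arrays, and this offset understates the change of dim genes. A member was tested where its signal passed the array's 40th percentile (20.6 to 25.8) on at least 3 arrays, and it was called, here written "rose" or "fell", where the Benjamini-Hochberg adjusted p over 16967 tested probe sets was under 0.05 and the change at least 2-fold. Of the 47 members 33 passed this filter. Arrays of a group correlated at 0.97 to 0.99, and the labels do not say whether separate plants were used, so the p-values reflect only how far these samples scatter, and that scatter may be technical. The 25S ribosomal RNA control exceeded 1000 on 6 seed arrays (arrays A of stages 6, 8 and 10, C of stages 7 and 8, and D of stage 10), and results of the F test and the 3 main comparisons that change without these arrays are marked. Leaving them out keeps array B alone at stages 8 and 10, and array B of stage 10 itself read 933. Each set of probes has its own response, so a higher signal of one gene than of another is not read as more transcript. In whole siliques and seeds, fewer cells of a type and less RNA per cell cannot be told apart.

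Nearly every tested UGT gene changed over the 8 groups, as did most of the array: 32 of 33 (97%) passed the moderated F test, next to 94.9% of all tested probe sets. Without the 6 arrays of high 25S control 31 passed, and UGT85A3 had an adjusted p of 0.0849. The exception was UGT84A4 (adjusted p = 0.191), whose group means stayed between 11.6 ± 7.41 (SD, n = 3, here and below for mean signals) and 24.02 ± 3.15. Between its highest and lowest group a tested member differed by 0.85 to 5.68 (log2), with a median of 2.31, while the median over all tested probe sets was 1.47. In 22 tested members this range was at least 4-fold and in 4 at least 16-fold, a description without the matching shares over the array.

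**Figure D1:**
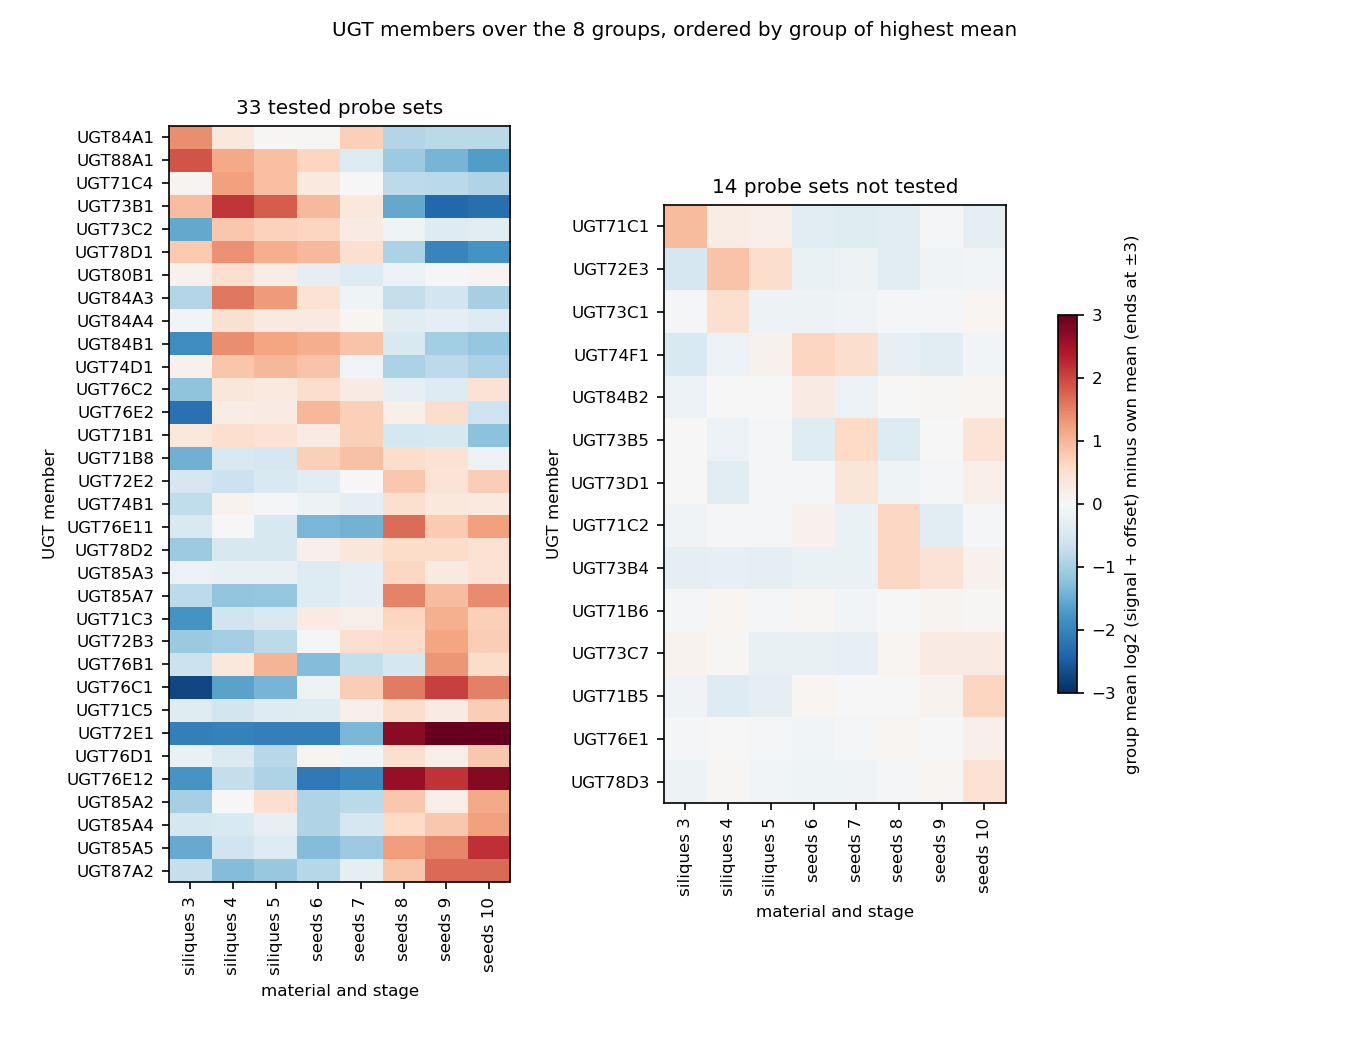
Colour shows each member's group mean of log2(signal + 6.97) minus the member's own mean over the 8 groups, red above and blue below, with tested members on the left and the 14 untested ones on the right, each ordered by group of highest mean. The left panel runs from 11 members highest in siliques at the top to 18 highest in seeds of stages 8 to 10 at the bottom, with UGT72E1 and UGT76E12 the strongest colours.

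Tested members were highest most often in siliques stage 4 and in seeds stages 8 to 10, with shares near those of the array at stages 9 and 10. Seeds stages 8 to 10 together held 18 of 33 (54.5%, against 38.5% of all tested probe sets). The 3 silique groups together held 11 (33.3%, against 43.9%). Siliques stage 4 was the highest group of 8 of 33 (24.2%, against 12.7% of all tested probe sets), namely UGT71C4, UGT73B1, UGT73C2, UGT78D1, UGT80B1, UGT84A3, UGT84A4 and UGT84B1. Seeds stage 8 held the highest mean of 6 (18.2%, against 5.62%), which were UGT72E2, UGT74B1, UGT76E11, UGT78D2, UGT85A3 and UGT85A7. Of these only UGT74B1 and UGT76E11 had all stage 8 arrays above the next group. The others led it by 0.02 (UGT78D2) to 0.17 (UGT85A3) in log2. Over the alternative settings stage 8 held 4 to 7 members and siliques stage 4 held 7 to 8. Seeds stage 9 held 4 (12.1%, against 11.9%), UGT71C3, UGT72B3, UGT76B1 and UGT76C1. Seeds stage 10 held 8 (24.2%, against 20.9%), UGT71C5, UGT72E1, UGT76D1, UGT76E12, UGT85A2, UGT85A4, UGT85A5 and UGT87A2. Siliques stage 3, the most common highest group over the whole array with 26%, held 2 members (6.06%), UGT84A1 and UGT88A1. The remaining 5 were UGT74D1 in siliques stage 5, UGT76C2 and UGT76E2 in seeds stage 6, and UGT71B1 and UGT71B8 in seeds stage 7. In 15 of the 33 all arrays of the highest group lay above all arrays of the next (45.5%, against 43.1% of all tested probe sets). Siliques stage 3 was the lowest group of 12 tested members, and it was the most common lowest group over the array as well (22.8%). These shares describe the members that passed the filter and were not tested against the array.

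**Figure D2:**
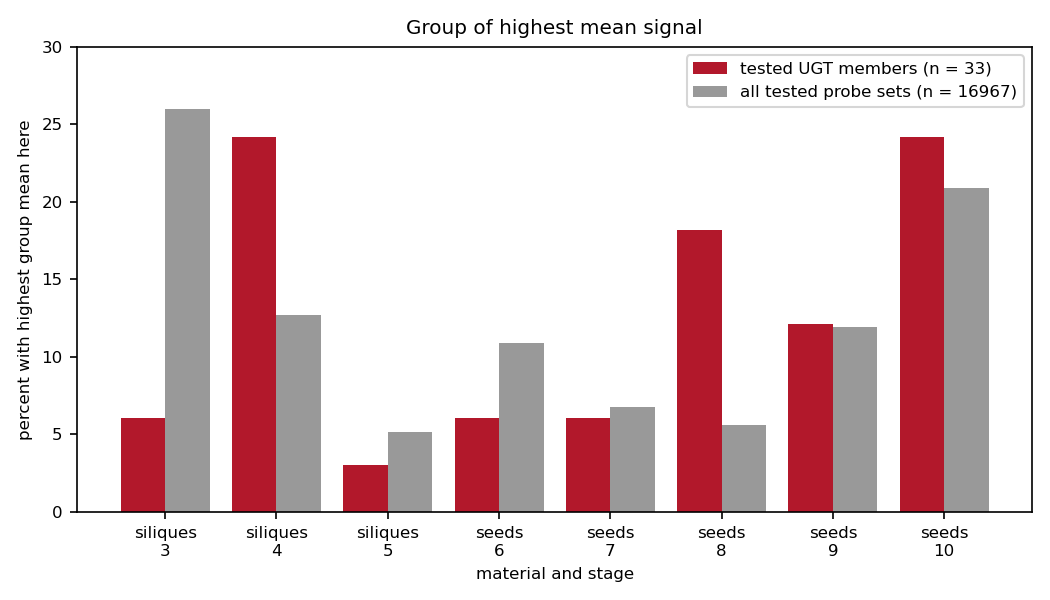
Bars give the percent of tested UGT members (n = 33) and of all tested probe sets (n = 16967) whose highest group mean fell in each of the 8 groups, on an axis from 0. The UGT bar is the taller at siliques stage 4 (24.2% against 12.7%) and seeds stage 8 (18.2% against 5.62%), and the shorter at siliques stage 3 (6.06% against 26%).

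Between stages 3 and 5 of whole siliques, many more tested UGT genes rose than fell. Of the 33 tested members 10 rose (30.3%, against 10.4% of all tested probe sets) and UGT84A1 alone fell (3.03%, against 10.9%). The median change over the tested members was 0.59, and over all tested probe sets -0.03. Number group 76 gave 4 of the rises, groups 84 and 85 gave 2 each, and 71 and 73 gave 1 each. With an offset 4 times larger 4 rises and no fall were called, since most of these genes were dim at stage 3. Over the array 1201 rises and 1230 falls were then called, from 1770 and 1844. The filter can admit a member through the group where it is high. UGT84A1 passed the line on 4 arrays, those of stage 3 among them. With a filter on the mean percentile instead, 20 members were tested, of which 5 rose and none fell. Over the array 1579 of 13805 probe sets then rose and 1096 fell.

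UGT84B1, which esterifies the auxin indole-3-acetic acid with glucose, read 5.06, 3.03 and 10.8 in siliques stage 3 and 113, 97.1 and 89.7 at stage 5. All 3 later arrays stood above the earlier ones, and it rose by 3.05 ± 0.26 (SE, adjusted p = 2.27e-10). UGT84A3, an enzyme forming glucose esters of hydroxycinnamates, read 62.7, 39.5 and 62.1 at stage 3 and 271, 260.5 and 254 at stage 5. The arrays did not overlap, and the rise was 2.15 ± 0.14 (SE, adjusted p = 1.39e-12). UGT76E2 read 7.799, 9.08 and 4.67 and then 79.3, 72.1 and 61.6. It went from near the dim end of the array to clearly above it on all arrays, a rise of 2.47 ± 0.13 (SE, adjusted p = 2.09e-14). UGT73C2 read 5.504, 2.37 and 1.705 and then 46.2, 44.2 and 32.6. Here too the groups were apart, with a rise of 2.25 ± 0.23 (SE, adjusted p = 6.43e-09).

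UGT76B1, which glucosylates isoleucic acid, salicylic acid and N-hydroxypipecolic acid, read 8.01, 3.49 and 4.54 at stage 3 and 32.9, 26.6 and 35.6 at stage 5. Each later array exceeded each earlier one, and the rise was 1.66 ± 0.25 (SE, adjusted p = 2.54e-06), or 0.84 and not called with the larger offset. UGT85A2 read 0.935, 2.25 and 1.42 at stage 3 and 13.7, 22.4 and 16.2 at stage 5. Its 3 later arrays were all higher, but even these stayed near or below the filter line, and the rise of 1.51 ± 0.24 (SE, adjusted p = 6.3e-06) was 0.62 with the larger offset.

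The other rises were those of UGT76C2 by 1.48 ± 0.24 (SE, adjusted p = 1.15e-05), UGT76C1 by 1.34 ± 0.15 (SE, adjusted p = 1.84e-08), UGT71C3 by 1.34 ± 0.14 (SE, adjusted p = 1.65e-08) and UGT85A5 by 1.08 ± 0.22 (SE, adjusted p = 0.000137). The first 3 were 0.65 to 0.73 with the larger offset and were then not called. The call of UGT85A5 was the least firm: it was lost with any of 3 arrays left out (0.96 without siliques stage 3 B, 0.95 without stage 3 C, 0.98 without stage 5 E), when centred on reference genes (0.98) and with the larger offset (0.42).

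UGT84A1, a hydroxycinnamate enzyme next to UGT84A3 in the genome, went the other way. Its signals were 32.8, 38.9 and 26.8 at stage 3 and 8.46, 7.04 and 9.896 at stage 5. The groups did not overlap, and it fell by 1.36 ± 0.21 (SE, adjusted p = 4.27e-06), or by 0.74 and not called with the larger offset. UGT88A1 just missed the 2-fold limit. It read 989.9, 1033 and 985 at stage 3 and 518, 482 and 495 at stage 5. All 3 later arrays were lower, with a change of -0.999 ± 0.08 (SE, adjusted p = 2.72e-11), and other scalings, such as quantile normalization at -1.03, put it past 2-fold.

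**Figure D3:**
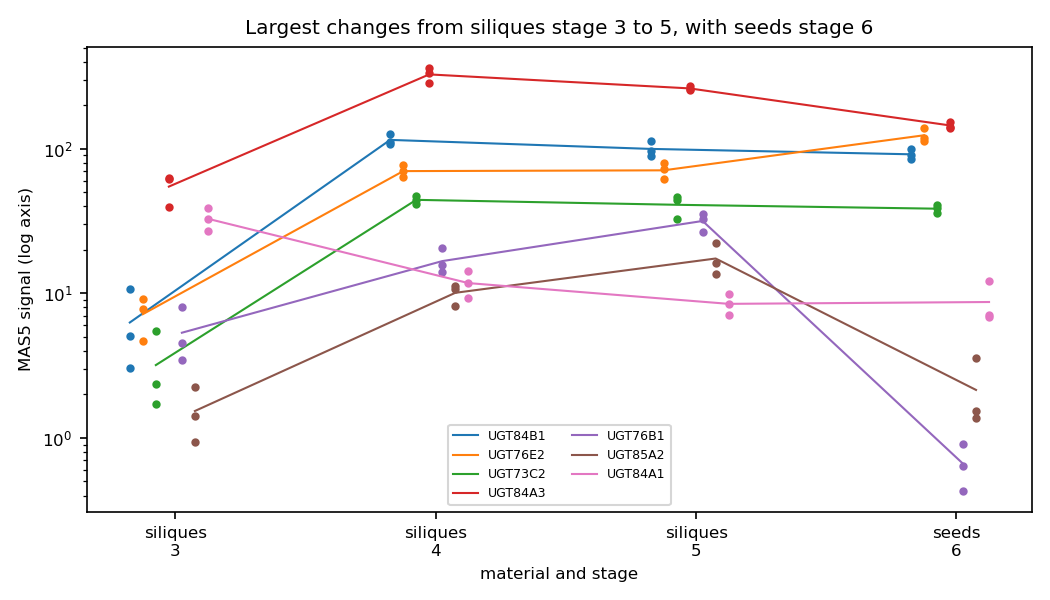
Points are the 3 arrays of each group and lines join group means, on a log axis of MAS5 signal, for the 6 largest rises and the only fall among UGT genes between siliques stages 3 and 5, with seeds stage 6 added. UGT84B1, UGT84A3, UGT76E2 and UGT73C2 are already high at siliques stage 4, UGT84A1 drops, and UGT76B1 and UGT85A2 drop again in seeds stage 6.

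Marker genes of the organs moved with this comparison. The summed signal of 7 seed marker genes was 44.4 to 64.2 in siliques stage 3, where each of the 7 stayed below the 40th percentile on every array, and 11140 to 11259 at stage 5. That of 3 pollen markers was 1681 to 1699 at stage 3 and 245 to 263 at stage 5, most of it from AT5G45880 (1572 ± 16.6 and 232 ± 5.94). ANX2 and MGH3 were below the 40th percentile at stage 5, and 2 of the 3 were called as falls. Both tested endosperm markers fell, and the sum over the 3 on the array was 116 to 143 at stage 3 and 12.8 to 27.0 at stage 5. The 3 silique wall markers summed to 2933 to 3014 at stage 3 and 2752 to 3086 at stage 5, nearly all of it from RCA, while ADPG1, below the 40th percentile at stage 3, rose by 2.25 and ALC differed by -0.97. As a sign of RNA quality, the ratio of 3′ to 5′ signal was 3.78 to 4.36 at stage 3 and 2.44 to 2.81 at stage 5 for the actin control. For the GAPDH control it was 1.996 to 2.35 and 1.33 to 1.51 by one pair of probe sets, and 1.32 to 1.41 and 1.38 to 1.496 by another. The part of any of these in the UGT changes was not tested. Arrays of siliques stages 4 and 5 carry the title letters D, E and F, and those of stage 3 A, B and C, so anything tied to the letters and the stage cannot be told apart.

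Between whole siliques of stage 5 and freed seeds of stage 6, few UGT genes passed the 2-fold limit. The main comparisons share siliques stage 5 or seeds stage 6, so their changes are not independent of each other. Of 33 tested members 2 rose (6.06%, against 4.07% of all tested probe sets) and 3 fell (9.09%, against 7.56%). These shares lie near those of the array, and the median change of the tested members was -0.11, against 0.06 over all tested probe sets. Smaller differences were common: the arrays of the 2 groups did not overlap in 18 of the 33, and in 62.1% of all tested probe sets. Loss of the wall and the step in stage cannot be told apart here. The sum over 3 silique wall markers was between 2752 and 3086 before and between 658 and 734 after. That of 5 photosynthesis genes went from between 9507 and 10335 to between 5213 and 6052. RCA, counted in both sums, went from 2690 ± 185 to 634 ± 43.4. The other wall markers fell as well, ALC by 1.96 and ADPG1 by 2.45, to below the 40th percentile in the seeds for ADPG1. Their part in the UGT changes was not tested.

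UGT76B1 had 32.9, 26.6 and 35.6 in siliques stage 5 and 0.433, 0.914 and 0.645 in seeds stage 6. It went to the bottom of the array on all 3 seed arrays, where a low signal cannot be told from background, and fell by 2.33 ± 0.25 (SE, adjusted p = 1.99e-08). UGT85A2 read 13.7, 22.4 and 16.2 and then 1.37, 1.53 and 3.55. The groups were apart, and it fell by 1.41 ± 0.24 (SE, adjusted p = 2.6e-05), or by 0.59 with the larger offset. UGT76E12 read 12.2, 11.6 and 10.5 in siliques stage 5 and 0.545, 1.07 and 1.07 in seeds stage 6. It fell by 1.23 ± 0.18 (SE, adjusted p = 4.3e-06) with no overlap, or by 0.45 with the larger offset, which ended both of these calls.

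UGT76C1, a cytokinin N-glucosyltransferase, read 30.2, 23.7 and 23.2 in siliques stage 5 and 71.9, 69.9 and 68.6 in seeds stage 6. Each seed array was above each silique array, and it rose by 1.24 ± 0.15 (SE, adjusted p = 1.21e-07), or 0.87 with the larger offset. UGT71B8, of the UGT71B enzymes that make abscisic acid glucose ester, read 8.41, 16.1 and 15.6 and then 37.1, 35.1 and 48.4. The arrays did not overlap and the rise was 1.23 ± 0.26 (SE, adjusted p = 0.000362), but 0.72 and not called with the larger offset.

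Within seeds UGT genes changed in both directions. From stage 6 to stage 10, 12 of 33 tested members rose (36.4%, against 14.1% of all tested probe sets) and 9 fell (27.3%, against 19.7%), while the other 12 were not called. The median change of the tested members was 0.45 and that of all tested probe sets 0.02. Number groups 76 and 85 gave 4 rises each and group 72 gave 2, with 1 each from 71 and 87. Falls came from groups 71 and 84 with 2 each, and from 73, 74, 76, 78 and 88 with 1 each. The 6 reference genes of another scaling themselves had a median change of -0.37 here, from -0.58 (AT5G46630) to 0.26 (AT4G26410), with none called. Centring each array on these 6 genes instead moved the median of all tested probe sets in this comparison to 0.30. It moved the split over the array from 2389 higher and 3346 lower to 3680 and 2520. Under that scaling 15 members rose and 8 fell. With the filter on the mean percentile 6 of 20 tested members rose and 9 fell. Over the array 1994 of 13805 probe sets then rose and 2955 fell.

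UGT72E1, which glucosylates coniferyl aldehyde, a lignin precursor, read 1.93, 0.957 and 0.666 in seeds stage 6 and 408, 371 and 453 at stage 10. It passed from the bottom of the array to well above its middle on all arrays, and rose by 5.68 ± 0.17 (SE, adjusted p = 8.2e-20). UGT76E12 was at 0.545, 1.07 and 1.07 at stage 6 and at 291, 191 and 210.1 at stage 10. All 3 late arrays were far above the early ones, a rise of 4.89 ± 0.18 (SE, adjusted p = 6.19e-18). UGT85A5 read 5.38, 4.41 and 2.16 and then 134, 115 and 96.5. The rise was 3.48 ± 0.22 (SE, adjusted p = 2.62e-13) and the groups were apart.

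UGT76E11, a close relative of UGT76E12, read 10.9, 13.7 and 16.1 in seeds stage 6 and 144, 136 and 82.4 at stage 10. Array D of stage 10 was the lowest of the late arrays but far above the early ones, and the rise was 2.61 ± 0.17 (SE, adjusted p = 3.68e-13). UGT87A2, which affects flowering time, had signals of 34.7, 44.4 and 44.4 and then 281, 285 and 264. Its replicates were tight at both stages, with a rise of 2.56 ± 0.12 (SE, adjusted p = 1.03e-15). UGT85A4 read 4.298, 10.6 and 2.51 at stage 6 and 54.4, 58.9 and 32.3 at stage 10. The groups did not overlap, and the rise was 2.13 ± 0.24 (SE, adjusted p = 2.63e-08).

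The other 6 rises were UGT85A2 by 2.04 ± 0.24 (SE, adjusted p = 3.46e-08), UGT76B1 by 1.85 ± 0.25 (SE, adjusted p = 2.98e-07), UGT85A7 by 1.79 ± 0.32 (SE, adjusted p = 1.96e-05), UGT76C1 by 1.66 ± 0.15 (SE, adjusted p = 2.19e-10), UGT71C5 by 1.09 ± 0.15 (SE, adjusted p = 5.01e-07) and UGT72E2 by 1.08 ± 0.18 (SE, adjusted p = 1.29e-05). With the larger offset UGT85A2 (0.96), UGT76B1 (0.78), UGT71C5 (0.76) and UGT72E2 (0.73) were not called. Without the 6 arrays of high 25S control UGT72E2 was at 0.75, below the 2-fold limit. Stage 10 then rested on array B alone, so this compares single signals rather than groups.

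Among the falls, UGT73B1 read 75.4, 87.4 and 77.9 in seeds stage 6 and 2.04, 3.596 and 1.69 at stage 10. All late arrays were at the bottom of the array, and it fell by 3.21 ± 0.16 (SE, adjusted p = 1.71e-15). UGT78D1, the flavonol 3-O-rhamnosyltransferase, went from 285, 346 and 319 to 55.6, 30.3 and 39.5. The groups were wide apart, and it fell by 2.76 ± 0.18 (SE, adjusted p = 5.11e-13). UGT88A1 read 424, 394 and 435 and then 77.7, 72.1 and 85.99. Its replicates lay close together at both stages, and it fell by 2.31 ± 0.08 (SE, adjusted p = 5.09e-19).

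UGT84B1, described above for its rise in siliques, read 90.8, 99.7 and 84.5 in seeds stage 6 and 14.1, 5.597 and 27.8 at stage 10. The late arrays scattered but all lay below the early ones, and it fell by 2.23 ± 0.26 (SE, adjusted p = 3.23e-08). UGT74D1, which glucosylates auxins such as indole-3-butyric acid and the oxidized form of indole-3-acetic acid, read 71.9, 58.1 and 62.2 and then 10.4, 22.95 and 8.81. It fell by 1.81 ± 0.19 (SE, adjusted p = 6.71e-09) without overlap. UGT76E2 had 113, 140.2 and 119 at stage 6 and 40.3, 34.9 and 31.9 at stage 10. It fell by 1.62 ± 0.13 (SE, adjusted p = 3.97e-11), again with the groups apart.

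UGT71B1 fell by 1.46 ± 0.11 (SE, adjusted p = 6.32e-12), UGT84A3 by 1.43 ± 0.14 (SE, adjusted p = 1.55e-09) and UGT71C4 by 1.20 ± 0.14 (SE, adjusted p = 4.16e-08). The last fell by 0.92 when centred on the reference genes and was then not called. Tissue markers moved over the same stages: 5 seed coat markers summed to 2895 to 2987 in seeds stage 6 and 431 to 526 at stage 10, and the 5 photosynthesis genes to 5213 to 6052 and 753 to 771. The sum over the 7 seed markers went from between 21513 and 23054 to between 49963 and 57794, with 5 of the 7 rising and OLEO3 falling by 1.73. The pollen marker AT5G45880 rose by 1.69 and the endosperm marker AT4G36590 by 1.01, while the other tested markers of these 2 lists were not called. The 3′ to 5′ ratio of the actin control was 2.79 to 3.13 at stage 6 and 2.02 to 2.30 at stage 10. By the first GAPDH pair above it was 1.97 to 2.33 at stage 6 and 3.02 to 3.80 at stage 10. That pair gave 1.99 to 2.31 at stage 7 and 4.24 to 4.92 at stage 8. The second pair gave 1.33 to 1.51 at stage 6 and 1.43 to 1.62 at stage 10, with 1.39 to 1.81 at stage 8. The part of any of these in the UGT changes was not tested.

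**Figure D4:**
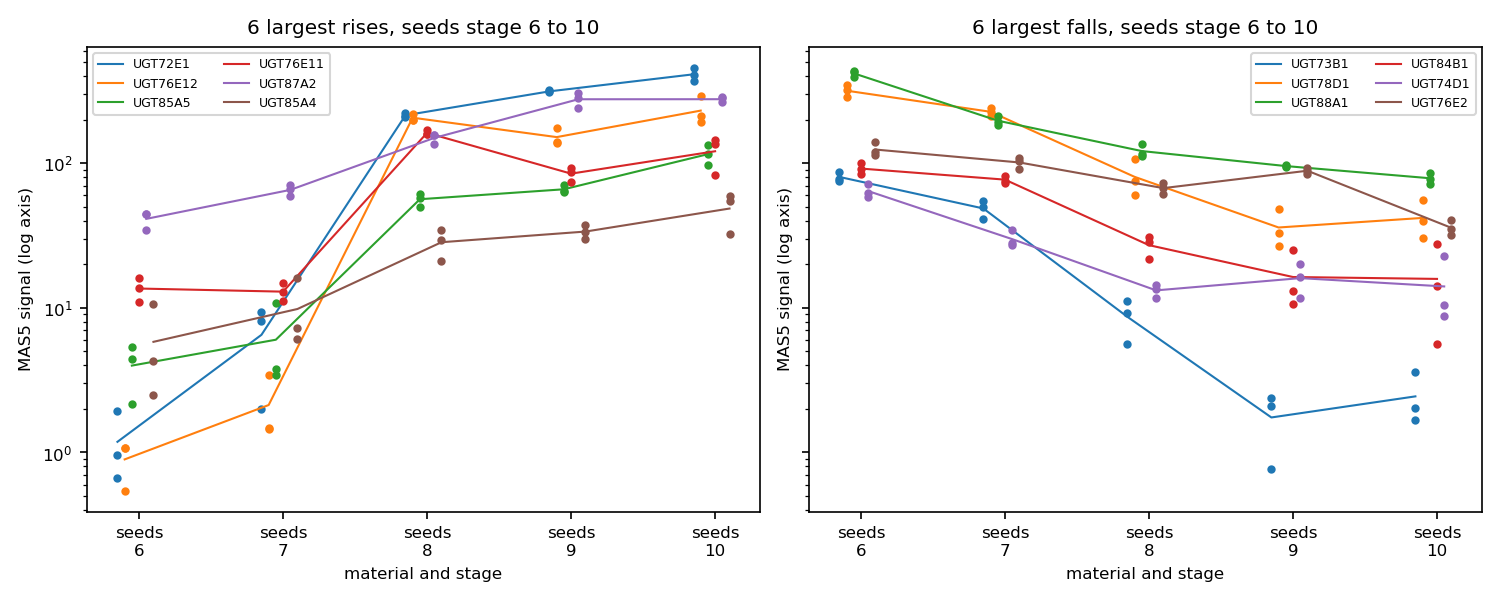
Points are the 3 arrays of each seed group and lines join group means, on a log axis of MAS5 signal shared by the 2 panels, for the 6 largest rises (left) and 6 largest falls (right) between seeds stages 6 and 10. UGT72E1, UGT76E12, UGT76E11 and UGT85A5 jump between stages 7 and 8 and then stay high, and the falling genes come down over several stages.

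Most calls in single steps fell at 2 points, siliques stage 3 to 4 and seeds stage 7 to 8. Falls within seeds were also called at other steps. From siliques stage 3 to 4, 11 tested members rose (33.3%, against 9.4% of all tested probe sets) and 1 fell (3.03%, against 9.46%). The largest rises were UGT84B1 by 3.24, UGT76E2 by 2.45, UGT84A3 by 2.45 and UGT73C2 by 2.35, and the fall was UGT84A1 at -1.08. From siliques stage 4 to 5 no member was called in either direction, where 1.89% of the array rose and 1.44% fell. From seeds stage 6 to 7 none rose (2.43% of the array did) and UGT88A1 fell by 1.06 (3.03%, against 1.07%).

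From seeds stage 7 to 8, 8 tested members rose (24.2%, against 8.06%) and 5 fell (15.2%, against 11.2%). UGT76E12 rose by 4.55, UGT72E1 by 4.08, UGT76E11 by 3.09 and UGT85A5 by 2.33. UGT73B1 fell by 1.84, UGT84A1 by 1.60, UGT78D1 by 1.45 and UGT84B1 by 1.31. Later steps held few calls: UGT76B1 rose by 1.85 from stage 8 to 9 (3.03%, against 1.06%) and UGT78D1 fell by 1.02 (3.03%, against 2.61%). From stage 9 to 10 none rose (0.778% of the array did) and UGT76E2 fell by 1.17 (3.03%, against 0.937%). Arrays with high 25S control occur at stages 7, 8 and 10 and at none of stage 9.

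By acceptor, the lignin precursor and hydroxycinnamate enzymes showed no common course. UGT72E1 had mean signals of 1.24 ± 0.683 in siliques stage 3 and 6.502 ± 3.94 in seeds stage 7, and then 214 ± 6.72, 313 ± 4.61 and 411 ± 41.1 at stages 8, 9 and 10. UGT72E2, which glucosylates coniferyl and sinapyl alcohol, was between 18.4 ± 2.42 and 33.1 ± 7.15 from siliques stage 4 to seeds stage 7 and 63.4 ± 15.2 at stage 8. UGT84A3 peaked at 327 ± 38.04 in siliques stage 4 and was 50.4 ± 11.98 in seeds stage 10. Its neighbour UGT84A1 was highest in siliques stage 3, came back to 18.4 ± 7.17 in seeds stage 7, and was 1.22 ± 0.592 at stage 8. Only 3 of 20 listed genes of phenylpropanoid and sinapate ester synthesis could be tested. Of these CCR2, a cinnamoyl-CoA reductase, rose by 2.56 and REF1, the aldehyde dehydrogenase that makes sinapate and ferulate, by 1.001 from seeds stage 6 to 10, while HCT, a hydroxycinnamoyl transferase, fell by 1.07.

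The flavonol enzymes UGT78D1 and UGT78D2 both had higher means in siliques stage 4 than stage 3 and then differed in course. UGT78D1 had means of 275 ± 6.19 in siliques stage 3, 419 ± 60.9 at stage 4, 317 ± 30.8 in seeds stage 6 and 35.9 ± 11.1 at stage 9. UGT78D2, the flavonoid 3-O-glucosyltransferase, had 52.2 ± 4.95 in siliques stage 3, 83.6 ± 13.5 at stage 4, 133 ± 9.65 in seeds stage 6 and 178 ± 26.9 at stage 8. It was not called in any of the 3 main comparisons, with changes of 0.59, 0.65 and 0.29. Of 22 listed flavonoid pathway genes 3 were tested, and all 3 fell from seeds stage 6 to 10: CHIL, a chalcone isomerase-like protein, by 5.64, BAN, the anthocyanidin reductase of seed coat tannins, by 4.52, and DFR, dihydroflavonol reductase, by 2.27. UGT80B1, whose mutant has pale seed coats, read 77.97, 59.3 and 68.99 in siliques stage 3, 82.6, 92.4 and 95.7 at stage 4, 70.01, 75.8 and 72.1 at stage 5, 53.7, 48.9 and 43.9 in seeds stage 6 and 64.9, 73.01 and 60.3 at stage 10. Its stage 4 arrays were the highest, its whole range was 0.91 (log2), and none of the 3 main comparisons called it.

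Among the hormone enzymes, the auxin genes UGT84B1 and UGT74D1 were both high from siliques stage 4 to seeds stage 6 and low in late seeds. UGT84B1 went from 115 ± 10.1 in siliques stage 4 to 76.9 ± 4.43 in seeds stage 7 and 27.1 ± 4.79 at stage 8, and UGT74D1 from 62.7 ± 10.7 to 29.8 ± 4.0004 and 13.2 ± 1.38. Of 11 listed auxin genes 5 were tested. YUC4, an auxin synthesis enzyme, rose by 1.46 between siliques stages 3 and 5, and from seeds stage 6 to 10 DAO1, which oxidizes auxin, rose by 1.03 and GH3.17, which joins it to amino acids, fell by 1.59. None of the 5 was called between siliques stage 5 and seeds stage 6.

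The cytokinin N-glucosyltransferase genes UGT76C1 and UGT76C2 are neighbours that parted in seeds. UGT76C1 climbed from 5.96 ± 1.86 in siliques stage 3 through 25.7 ± 3.87 at stage 5 and 70.1 ± 1.68 in seeds stage 6 to 347 ± 14.7 at stage 9, and was 236 ± 12.1 at stage 10. UGT76C2 was 5.61 ± 2.63 in siliques stage 3 and 27.8 ± 3.19 at stage 5, and in seeds its means lay between 15.6 ± 7.77 and 34.97 ± 9.92, with no call from stage 6 to 10 (-0.09).

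UGT71C5, which forms abscisic acid glucose ester, had means of 22.9 ± 1.43 in siliques stage 4 and 66.1 ± 8.49 in seeds stage 10, and UGT71B8 of 3.94 ± 3.82 in siliques stage 3, 45.1 ± 3.198 in seeds stage 7 and 20.1 ± 11.8 at stage 10. The last rested on scattered arrays (31.9, 19.9 and 8.35), and the change of -0.89 from stage 6 to 10 was not called. The single tested abscisic acid gene of 13 listed, BGLU33, a beta-glucosidase that releases the hormone from its ester, fell by 3.04 between siliques stages 3 and 5 and was not called in the other main comparisons.

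UGT76B1 had a broken course, with means of 31.7 ± 4.62 in siliques stage 5, 0.664 ± 0.241 in seeds stage 6, 6.59 ± 3.96 at stage 8 and 40.6 ± 6.27 at stage 9. UGT76D1, which acts on dihydroxybenzoic acids, stayed between 5.05 ± 2.93 in siliques stage 5 and 30.9 ± 9.74 in seeds stage 10, with no call in the 3 main comparisons. UGT71C3, which glucosylates methyl salicylate, increased in mean from 5.41 ± 1.31 in siliques stage 3, by way of 24.2 ± 2.01 at stage 5 and 43.6 ± 3.44 in seeds stage 6, to 82.4 ± 11.04 at stage 9, and its step from seeds stage 6 to 10 of 0.48 was not called.

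UGT74B1, the S-glucosyltransferase of glucosinolate core synthesis, read 53.7, 69.3 and 60.2 in siliques stage 3, 105, 109 and 99.5 at stage 5, 88.8, 86.8 and 116 in seeds stage 6, 148, 146 and 166 at stage 8 and 121, 123 and 161 at stage 10. Stage 3 was its lowest group, and its changes of 0.72, -0.11 and 0.45 in the main comparisons were not called. Of 19 listed glucosinolate genes 3 were tested. BCAT4, an aminotransferase at the start of methionine chain elongation, rose by 5.00 between siliques stages 3 and 5 and fell by 2.38 from there to seeds stage 6, and of the glucosinolate transporters GTR1 fell by 1.26 from seeds stage 6 to 10 while GTR2 was not called in the main comparisons. None of the listed genes for UDP-sugar supply, cytokinin, brassinosteroid and sterol, or salicylic acid could be tested.

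Of the members without an acceptor named here, UGT88A1 had means of 1003 ± 26.6, 589 ± 34.3 and 498 ± 18.5 in siliques stages 3, 4 and 5, and 417 ± 21.1, 196 ± 14.96, 121 ± 12.5, 95.4 ± 0.858 and 78.6 ± 6.99 in seeds stages 6 to 10. Each group mean was below the one before. UGT71C4 read 167, 163 and 181 in siliques stage 3, 366, 407 and 381 at stage 4, 227, 218 and 159 in seeds stage 6 and 86.6, 76.1 and 85.8 at stage 10. Its stage 4 arrays were above all others. UGT73B1 had means of 77.8 ± 11.002 in siliques stage 3, 190.4 ± 23.9 at stage 4, 48.6 ± 7.104 in seeds stage 7 and 8.66 ± 2.85 at stage 8. UGT72B3 went from 12.3 ± 5.54 in siliques stage 3 to 84.9 ± 13.8 in seeds stage 9, without a call in the main comparisons (0.31, 0.73 and 0.79). UGT85A3 had its highest mean of 22.7 ± 5.31 in seeds stage 8, close to the filter line, and UGT85A7 had 64.1 ± 3.56 there after 15.5 ± 10.3 at stage 7.

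Likeness between members was measured by Pearson's r over the 8 group means of log2 values, among the 32 members past the F test. The 5 most alike pairs were UGT73B1 with UGT78D1 (r = 0.99), UGT72E2 with UGT85A7 (0.98), UGT85A4 with UGT85A5 (0.98), UGT72B3 with UGT76C1 (0.98) and UGT76E12 with UGT85A5 (0.98). Only UGT85A4 and UGT85A5 share a number, and they lie far apart in the genome. The groups share material and scaling, so these values describe likeness of course only.

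Of the 47 members 24 lie in 10 runs of neighbouring genes, such as UGT85A7, UGT85A2, UGT85A5 and UGT85A3, or UGT84A1, UGT84A3 and UGT84A4. Neighbours did not share a course in general: r between 7 adjacent pairs was -0.91 to 0.91 with a median of 0.27, against a median of 0.51 over 43 other pairs of one number and 0.07 over 446 pairs of different number. UGT71C4 and UGT71C5, side by side, had r = -0.91, and UGT71C3 and UGT71C4 had -0.63, while UGT85A3 and UGT85A5 had 0.91. The lowest values of non-adjacent pairs of one number were -0.81 for UGT71B1 and UGT71C5, -0.71 for UGT78D1 and UGT78D2, and -0.61 for UGT71B1 and UGT71C3. Whether probes of close relatives take up each other's transcripts was not tested, since probe sequences were not used here.

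**Figure D5:**
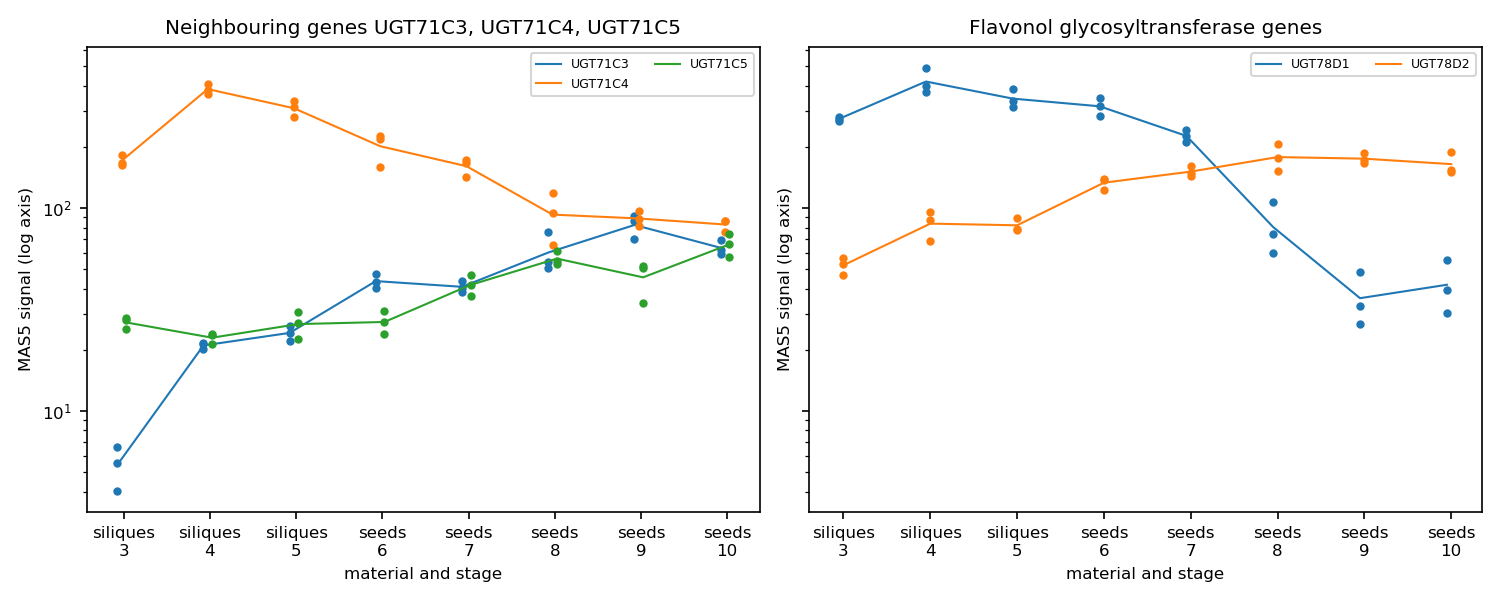
Points are the 3 arrays of each of the 8 groups and lines join group means, on a log axis of MAS5 signal. UGT71C4 is highest in siliques stage 4 and declines in seeds while its neighbours UGT71C3 and UGT71C5 are higher in late seeds (left), and UGT78D1 declines while UGT78D2 stays between 52.2 and 178 in its group means (right).

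The other 14 members stayed at or near the dim end of the arrays and were not tested: UGT71B5, UGT71B6, UGT71C1, UGT71C2, UGT72E3, UGT73B4, UGT73B5, UGT73C1, UGT73C7, UGT73D1, UGT74F1, UGT76E1, UGT78D3 and UGT84B2. Of these 13 never passed the 40th percentile, and UGT71B5 did so on 2 arrays, with 23.4, 22.05 and 24.003 in seeds stage 10, the highest group mean among them (23.2 ± 1.01). They include UGT71B6, an abscisic acid glucosyltransferase with 1.38, 0.443 and 1.64 in seeds stage 6, and UGT84B2, a relative of UGT84B1 with 0.276, 7.61 and 4.17 there. UGT73 lost the most, with 5 of its 7 members untested, and 71 lost 4 of 9. The files hold no detection calls, so a low signal does not show that a gene was silent.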

How the data were processed

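RNA of 24 samples was labelled with biotin and hybridized to 1 array each. The values deposited by the authors are linear signal intensities, computed by MAS5, per the submitters' processing notes, with its version not given in the sources used here, and scaled per array, so each value is relative to the rest of its array. They come without detection calls, and precision is limited by the number of arrays.

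Arrays were grouped by tissue label. Signals were taken as log2(signal + 6.97), where the offset is the median of the arrays' 20th percentiles. No test used the 64 control probe sets. Of the rest 16967 passed the filter, a signal above the 40th percentile of the array on at least 3 arrays. They were fitted with limma 3.58.1 in R 4.3.3, with 1 mean per group, eBayes with a variance trend and 16 residual degrees of freedom. The fit was tested on simulated data. Figures were drawn with matplotlib 3.10.9. All 47 members matched a locus of the RefSeq gene table (assembly TAIR10.1), used only for names and neighbours, and no source used here gives the build behind the array annotation.

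Full values are given for up to 6 highest and 6 lowest called changes per main comparison, for the member of highest group mean in each number group, and for the 4 of highest group mean, a choice of what to print and no comparison of transcript levels. Other called members have their change only, up to 4 per direction in single steps, and up to 3 genes are named per pathway list. The 5 most alike pairs, and the least alike pairs of one number group, are named. Members, lists and rules were chosen with earlier results of these data known. Alternatives covered the offset, filter, scaling, variance model, title letters, arrays with high 25S control, arrays in the fit and each array left out in turn.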

Additional observations from a re-analysis of the deposited data

How the results depend on the processing

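Counts in brackets after a member count are those over all tested probe sets, 16967 or, with a filter on the mean percentile, 13805. In siliques stage 5 against 3 the 10 rises (1770) became 4 (1201) with an offset 4 times larger. They became 5 (1579) with the mean percentile filter, which left 20 members to test. The 1 fall (1844) became 3 (2092) with no offset. It became 0 (1230) with the larger offset, where no member was past 2-fold and UGT84A1 was at -0.74, and 0 (1096) with the mean percentile filter. It became 2 with quantile normalization (1859), 75th percentile centring (1860) or reference gene centring (2135). Leaving out an array gave 9 to 11 rises and 1 to 2 falls. In seeds stage 6 against siliques stage 5 the 2 rises (690) became 4 (973) with no offset. They became 0 (422) with the larger offset, with UGT76C1 at 0.87 and UGT71B8 at 0.72. With the mean percentile filter 1 (630) was left, and 2 to 3 without an array. The 3 falls (1282) became 6 (1453) with no offset, 1 (778) with the larger offset and 1 (899) with the mean percentile filter. They stayed 3 with any array left out. In seeds stage 10 against 6 the 12 rises (2389) among 33 members became 6 (1994) among 20 with the mean percentile filter. Leaving out an array gave 12 to 13 rises and 9 to 11 falls. The F test passed 20 of 20 with the mean percentile filter and 32 to 33 without an array. Counts over the array for fits without an array, and for the F test with that filter, are not given here.

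Deviations of same-letter arrays from their group means correlated at -0.05 to 0.10 over 45 pairs, and those of different letters at -0.11 to 0.15 over 207. Group means were taken out first, so this cannot show a difference between whole groups that carry different letters. With letters as a replicate block, 12 members rose (1936) and 2 fell (2033) in siliques stage 5 against 3. In seeds stage 6 against siliques stage 5, 3 rose (933) and 5 fell (1316). In that fit UGT76C2, UGT71B8 and UGT71C5 each lost 1 call and UGT85A2 lost 2. Groups lettered D, E and F are tied to those lettered A, B and C only through array D of the last seed stage. Both comparisons with siliques stage 5 then hang on that 1 array, so their counts and lost calls cannot show an effect of the letters.

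Of 37 called changes in the main comparisons, 15 were called under every alternative and another 6 under every alternative that tested them, those of UGT72E1, UGT85A4, UGT85A5 and UGT85A7 in seeds stage 10 against 6, UGT76B1 in seeds stage 6 against siliques stage 5 and UGT73C2 in siliques stage 5 against 3, which the mean percentile filter left out. None reversed. Reference gene centring moved the median change of all tested probe sets to -0.14, 0.17 and 0.30 in the 3 comparisons, from -0.03, 0.06 and 0.02. The group of highest mean was the same as in the main analysis for 26 to 33 of 33 members. Dim signals limit these calls, as the offset shows.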
